A study of Mus musculus with 8 samples.

Results

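The 9 genes described here encode the adult globin chains and proteins that young red cells use to make heme and to carry gas: Hba-a1, Hba-a2, Hbb-bs, Hbb-bt, Alas2, Fech, Slc25a37, Slc4a1 and Bpgm. They were chosen by name, and all 9 were found among the 39056 genes of the count table. All 9 also passed the filter on low counts, which 14796 genes passed in all. RNA of mouse heart samples, captured by poly-A, was sequenced from 4 HVCN1 null hearts (gene knockout, HVCN1-/-) and 4 wild-type (WT) hearts, 1 library per heart. The mice were males of 3 months on the C57BL/6 background. HVCN1 is a voltage-gated proton channel, and the study asked how its loss changed the transcriptome of the heart. The sources used here do not give the design of the null allele, the part of the heart taken or whether the hearts were cleared of blood. Hearts are numbered here from 1 to 4 (HVCN1 null) and from 5 to 8 (WT).

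Hemoglobin is built from alpha chains and beta chains, each holding a heme group with an iron atom that binds oxygen. Mature mammalian red cells have no nucleus, but the youngest circulating ones, the reticulocytes, still carry messenger RNA, most of it globin. Globin RNA in a heart library is therefore commonly read as a sign of the blood that came with the tissue. In bulk RNA, fewer cells of a type and less RNA per cell cannot be told apart.

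The alpha genes and the beta genes each come as a pair whose coding sequences are almost the same, which bears on every count given for them. Over the 444 coding bases of Hbb-bs and Hbb-bt and the 429 coding bases of Hba-a1 and Hba-a2, the annotated transcripts differed at 1 base in each pair. These were C417T from Hbb-bs to Hbb-bt and C381T from Hba-a1 to Hba-a2, counted from 1 at the first base of the start codon. Neither changed the protein, so each pair encodes 1 and the same chain of 147 codons (beta) or 142 codons (alpha) with the start codon. The coding part of exon 3 is shown for each gene because it holds the base that tells the genes of a pair apart, given in capitals (GENCODE M21 transcripts, GRCm38, 5′ to 3′ on the coding strand).
Hbb-bs, minus strand of chr7:103826665-103826793: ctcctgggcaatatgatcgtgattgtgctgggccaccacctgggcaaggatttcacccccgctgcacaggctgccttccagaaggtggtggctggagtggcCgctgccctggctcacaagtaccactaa
Hbb-bt, minus strand of chr7:103812656-103812784: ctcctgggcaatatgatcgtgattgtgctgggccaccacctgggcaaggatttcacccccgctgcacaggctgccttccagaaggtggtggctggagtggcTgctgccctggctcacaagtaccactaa
Hba-a1, plus strand of chr11:32284263-32284391: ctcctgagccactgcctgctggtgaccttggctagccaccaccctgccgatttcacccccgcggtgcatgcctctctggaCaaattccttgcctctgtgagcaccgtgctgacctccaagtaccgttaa
Hba-a2, plus strand of chr11:32297080-32297208: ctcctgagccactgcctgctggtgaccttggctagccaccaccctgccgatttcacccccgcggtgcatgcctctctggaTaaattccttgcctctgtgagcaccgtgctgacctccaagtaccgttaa
The 3′ untranslated regions set the beta genes further apart, with 70.1% identity over their alignment. Of all 50-base stretches, the length of 1 read, 65.8% of those in the Hbb-bs transcript also occurred in Hbb-bt. For Hba-a1, 67.5% occurred in Hba-a2, and for Hba-a2, 86.9% occurred in Hba-a1, whose sequence covers most of it. How reads that match both genes of a pair were counted is not given in the sources used here. The level of a single gene of a pair is therefore less certain than the sum of the pair.

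The libraries held 25851255 to 38874640 counts, and the targeted gene followed the labels. Hvcn1 had 0.038 to 0.180 CPM (counts relative to the library's total, scaled by trimmed mean of M values) in the HVCN1 null hearts and 1.51 to 2.62 CPM in the WT hearts. The 8 markers of heart muscle were abundant in every library, at a sum of 60270 to 76960 CPM. Atrial markers varied far more, from 84.8 to 8169 CPM, with high and low hearts in both groups, so the samples held unequal amounts of atrial RNA.

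Globin RNA differed more between hearts than between genotypes. The summed level of the 4 adult globin genes was 1258, 1252, 3132 and 8152 CPM in HVCN1 null hearts 1 to 4. It was 14860, 2894, 3803 and 4856 CPM in WT hearts 5 to 8. WT heart 5 was the highest, HVCN1 null heart 4 came next, and HVCN1 null hearts 1 and 2 were the lowest, so the groups overlapped. The highest heart had 11.9 times the level of the lowest. The groups averaged 3449 ± 3258 CPM (SD, n = 4) in HVCN1 null and 6604 ± 5564 CPM (SD, n = 4) in WT. The difference of the means (HVCN1 null minus WT) was -3155 CPM with all hearts. It was -402 CPM without WT heart 5 and -4723 CPM without HVCN1 null heart 4. Without both of these hearts, a choice made after seeing the data, it was -1970 CPM. The share of all counts taken by these genes ran from 0.128% in HVCN1 null heart 1 to 1.51% in WT heart 5.

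**Figure D1:**
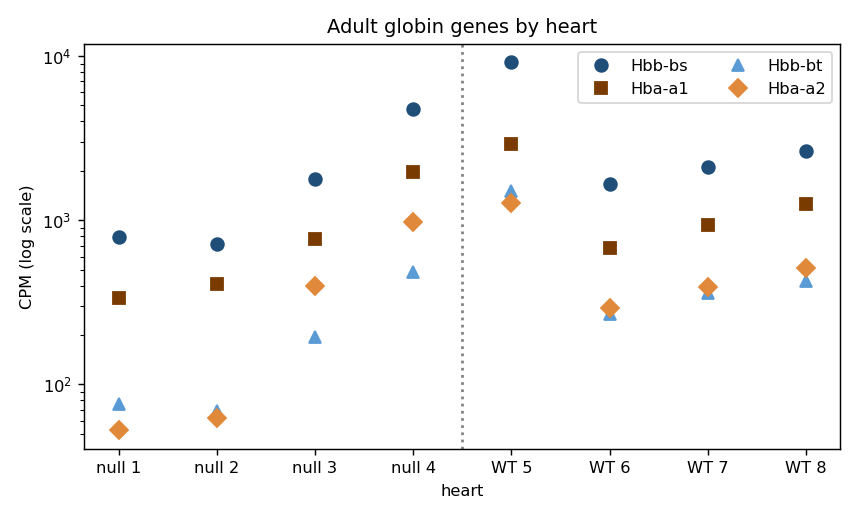
CPM (log scale) of the 4 adult globin genes in each of the 8 hearts, with HVCN1 null hearts left and WT hearts right of the dotted line. Each point is 1 library; WT heart 5 is highest for every gene, with 9150 CPM for Hbb-bs, and Hba-a2 falls below Hbb-bt in HVCN1 null hearts 1 and 2 and in WT heart 5.

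Hbb-bs (beta chain, chr7:103826534-103828096, minus strand) carried most of the beta-globin counts. Its level was 795, 715, 1775 and 4732 CPM in the HVCN1 null hearts and 9150, 1653, 2118 and 2656 CPM in the WT hearts. The order of the hearts was that of the globin sum. Hbb-bt (the second beta gene, chr7:103812524-103813996, minus strand) had 76.4, 68.6, 194 and 484 CPM in the HVCN1 null hearts. In the WT hearts it had 1508, 269, 359 and 428 CPM. For Hbb-bt, 3 of the 4 HVCN1 null hearts were below every WT heart, and HVCN1 null heart 4 overlapped the WT range.

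Hba-a1 (alpha chain, chr11:32283511-32284465, plus strand) had 334, 406, 765 and 1956 CPM in the HVCN1 null hearts and 2925, 681, 936 and 1260 CPM in the WT hearts. Hba-a2, the neighbouring alpha gene (chr11:32296489-32297298, plus strand), had 52.5, 62.7, 398 and 980 CPM in the HVCN1 null hearts. In the WT hearts it had 1279, 292, 389 and 511 CPM. For both alpha genes, HVCN1 null hearts 1 and 2 were below every WT heart, while hearts 3 and 4 lay within the WT range. Hba-a2 had the widest range of the 9 genes, 24.4-fold from the lowest to the highest heart.

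None of the 9 genes was called between the genotypes, and none separated the groups. In edgeR's quasi-likelihood test, 0 of the 9 had a Benjamini-Hochberg adjusted p under 0.05, against 1.16% of all genes tested. DESeq2 and limma voom also called 0 of the 9. For 0 of the 9 did the 4 HVCN1 null hearts all lie on one side of the 4 WT hearts, which held for 7.06% of all genes. At an unadjusted p under 0.05 in edgeR there was 1 gene, Fech. The fitted log2 fold change (HVCN1 null over WT) was below 0 for all 9, with a median of -0.93 beside -0.01 over all genes tested. These 9 are not separate pieces of evidence, since their levels moved together over the hearts. Exact two-sided permutation tests of mean CPM gave unadjusted p from 0.0571 to 0.486 over the 9 genes, where the smallest that 4 and 4 hearts allow is 0.0286.

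Among the globin genes, the fitted difference was widest for Hbb-bt, at -1.64 (standard error 0.88, edgeR adjusted p = 0.606). It was -0.96 (0.84, adjusted p = 0.824) for Hbb-bs. The fitted difference was -0.75 (0.72, adjusted p = 0.847) for Hba-a1 and -0.73 (1.06, adjusted p = 0.911) for Hba-a2, but limma voom put Hba-a2 lower, at -1.44 beside -0.87 for Hba-a1. Single hearts moved all 4 values by more than 1.5 times. Without WT heart 5 they were -0.76 for Hbb-bt, -0.08 for Hbb-bs, -0.13 for Hba-a1 and -0.07 for Hba-a2. Without HVCN1 null heart 4 they were -2.51, -1.83, -1.53 and -1.86 in the same order.

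The split of the beta-globin counts, in contrast to their amount, separated the genotypes. Hbb-bt held 8.77%, 8.76%, 9.84% and 9.28% of the Hbb-bs and Hbb-bt counts in HVCN1 null hearts 1 to 4. It held 14.2%, 14.0%, 14.5% and 13.9% in WT hearts 5 to 8. Every HVCN1 null heart was below every WT heart, and the hearts with the most and the least globin RNA in a group had nearly the same share. The 95% Wilson interval was 9.59% to 10.1% for HVCN1 null heart 3, the highest of its group, and 13.7% to 14.1% for WT heart 8, the lowest of its group. These intervals cover counting error only. Hbb-bs accordingly held 90.8% ± 0.512 (SD, n = 4) in HVCN1 null hearts and 85.9% ± 0.269 (SD, n = 4) in WT hearts, a difference of 4.96 percentage points (exact permutation p = 0.0286, two-sided). That is the smallest p this design allows. Adjusted over the 3 globin shares tested it was 0.0857, so it did not pass 0.05 after correction. Given the p of the other shares, no separation of this share could have passed, so the correction cannot decide. The direction held in 4 of 4 hearts against 4 of 4.

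The split of the alpha-globin counts followed another pattern, within the HVCN1 null group rather than between groups. Hba-a2 held 13.6% and 13.4% of the Hba-a1 and Hba-a2 counts in HVCN1 null hearts 1 and 2, but 34.2% and 33.4% in hearts 3 and 4. In WT hearts 5 to 8 it held 30.4%, 30.0%, 29.4% and 28.9%. Hence 2 HVCN1 null hearts were far below the WT hearts and the other 2 were above them all. The share of Hba-a1 averaged 76.4% ± 11.7 in HVCN1 null and 70.3% ± 0.691 in WT hearts (SD, n = 4 each, difference 6.04 points, exact permutation p = 0.429). HVCN1 null hearts 1 and 2 were also the hearts with the least globin RNA. In the WT hearts the share stayed at 28.9% to 30.4% while the globin sum ran from 2894 to 14860 CPM. Why the shares differed was not tested.

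**Figure D2:**
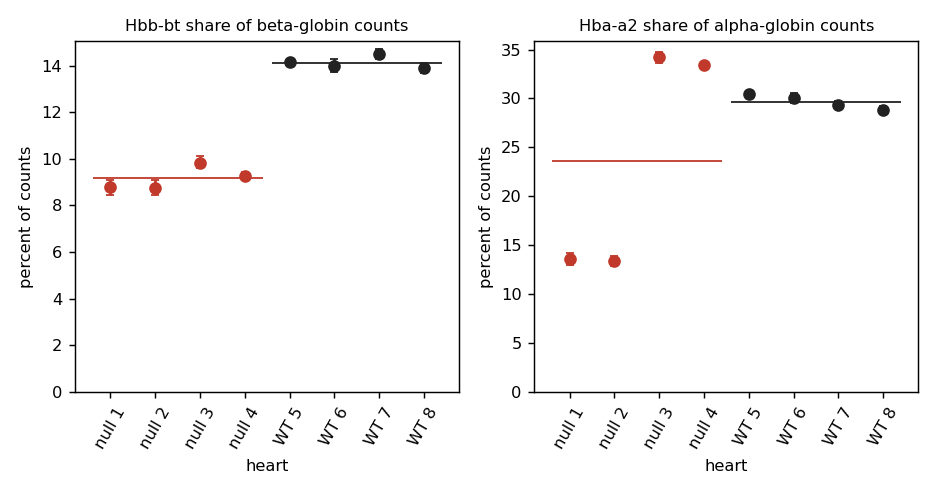
Percent of the beta-globin counts carried by Hbb-bt and of the alpha-globin counts carried by Hba-a2, by heart. Each point is 1 library; the Hbb-bt shares lie at 8.76% to 9.84% in HVCN1 null and 13.9% to 14.5% in WT hearts, and the Hba-a2 shares of the HVCN1 null hearts fall on either side of the WT hearts.

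Alpha and beta counts kept a similar balance in the genotypes. The alpha genes held 35.3% ± 3.13 of the counts of the 4 globin genes in HVCN1 null hearts and 33.3% ± 3.55 in WT hearts (SD, n = 4 each). The difference of 2.02 percentage points was within the spread of the hearts (exact permutation p = 0.457).

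Because the split of the beta genes followed genotype, their neighbours on the chromosome were also examined, a window chosen after those shares were seen. Within 1 Mb of the beta-globin genes, 9 other genes were tested and 4 were called by edgeR, beside 1.16% of all genes. All 9 belong to the Trim family, whose proteins include antiviral factors. They lie together on 1 side of the beta-globin genes, 391 to 642 kb away. As linked genes that in part share sequence, they are not separate pieces of evidence. Trim5 fell by 1.31 on the log2 scale (adjusted p = 0.00915), from 2.93 ± 0.240 CPM in WT to 1.18 ± 0.276 CPM in HVCN1 null hearts (SD, n = 4). Trim12a fell by 0.79 (adjusted p = 0.00936) and Trim34a fell by 0.67 (adjusted p = 0.0425). Trim34b rose by 4.54 (adjusted p = 0.00193), its counts summing to 184 in the HVCN1 null group and 8 in the WT group. The other 5 were not called. Trim12c and Trim30a were nearly flat, at 0.00 and -0.18 on the log2 scale. Trim6 was fitted at 0.34 and Trim30b at -0.78, both with groups that overlapped. Trim30d was fitted at -0.90 (edgeR adjusted p = 0.0866), and for it every HVCN1 null heart was below every WT heart.

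Some of these Trim genes share much of their sequence with another gene, and others share little or none. In the Trim34b transcript 59.0% of 50-base stretches also occurred in Trim34a, and in the Trim5 transcript 24.7% occurred in Trim12c. Reads of these genes could thus be divided between copies. The share of stretches found in any other gene was 59.0% for Trim34b, 41.3% for Trim34a, 38.1% for Trim5, 33.7% for Trim12c and 23.5% for Trim12a. It was 8.29% for Trim30d, 6.53% for Trim30a, 0.991% for Trim30b and 0% for Trim6. The call of Trim34a was lost without HVCN1 null heart 2, 3 or 4 or any 1 of the WT hearts (edgeR adjusted p 0.0793 to 0.155), and that of Trim5 without both HVCN1 null heart 4 and WT heart 5 (adjusted p = 0.0583). Near the alpha-globin genes, edgeR, DESeq2 and limma voom each called 0 of 17 tested genes, with 2 at an unadjusted edgeR p under 0.05. Whether the Trim values and the beta-globin shares have a source in common was not tested.

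Alas2 and Fech catalyse the first and the last step of heme synthesis. Alas2 (chrX:150547375-150570638, plus strand) is the form of aminolevulinate synthase that red cell precursors use, and other genes overlap it on the opposite strand. It had 37.4, 37.8, 77.1 and 227 CPM in the HVCN1 null hearts and 345, 116, 138 and 170 CPM in the WT hearts. The hearts stood almost in the order of their globin RNA. Its fitted log2 difference was -1.02 (standard error 0.71, edgeR adjusted p = 0.742), or -0.56 without WT heart 5 and -1.92 without HVCN1 null heart 4. Alas1, the form that other tissues use, was flat, at 188 ± 19.2 CPM in HVCN1 null and 173 ± 16.8 CPM in WT hearts (SD, n = 4).

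Fech, ferrochelatase, inserts iron into the finished ring. It had 115, 127, 117 and 156 CPM in the HVCN1 null hearts and 168, 161, 140 and 172 CPM in the WT hearts. The range over all hearts was 1.49-fold, the narrowest of the 9 genes, and 3 of the 4 HVCN1 null hearts lay below every WT heart. The log2 fold change was -0.32 with a standard error of 0.12 (edgeR adjusted p = 0.317), and it kept to -0.42 to -0.27 when each heart was left out. Of the 9 enzymes of heme synthesis, 5 were fitted higher and 4 lower in HVCN1 null hearts, and the median log2 fold change was 0.02. Across these enzymes edgeR, DESeq2 and limma voom called 0, with 1 (Fech) at an unadjusted edgeR p under 0.05. Only Alas2 among them had a correlation above 0.9 with the globin sum.

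Slc25a37, mitoferrin-1, brings iron into mitochondria (chr14:69241848-69285112, minus strand). Annotated genes overlap it on both strands, and 8.07% of its 50-base stretches also occurred in Gm16867. It had 28.5, 23.0, 27.6 and 40.5 CPM in the HVCN1 null hearts and 51.3, 29.2, 32.3 and 36.9 CPM in the WT hearts. Its log2 fold change was -0.33 (standard error 0.20, edgeR adjusted p = 0.671), or -0.12 without WT heart 5 and -0.51 without HVCN1 null heart 4. The level in the hearts with little globin RNA was not much below that in the others, a 2.24-fold range in all. Of 14 genes of heme and mitochondrial iron transport and heme breakdown, 5 were fitted higher and 9 lower, and 0 were called by edgeR, DESeq2 or limma voom, with 2 at an unadjusted edgeR p under 0.05.

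Slc4a1, anion exchanger 1, exchanges chloride for bicarbonate across the red cell membrane (chr11:102348824-102366203, minus strand). It had 2.34, 2.22, 4.03 and 12.1 CPM in the HVCN1 null hearts and 20.9, 8.04, 9.31 and 9.66 CPM in the WT hearts. HVCN1 null hearts 1 to 3 were below every WT heart, and heart 4 was above 3 of them. The log2 fold change was -1.21 (standard error 0.64, edgeR adjusted p = 0.589), or -0.78 without WT heart 5 and -2.08 without HVCN1 null heart 4. With both HVCN1 null heart 4 and WT heart 5 left out, the hearts with most globin RNA in their groups, it was -1.65 and Slc4a1 was called (edgeR adjusted p = 0.00985), an alternative chosen after seeing the data.

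Bpgm makes the bisphosphoglycerate that lowers the oxygen affinity of hemoglobin (chr6:34476207-34505613, plus strand). It had 23.0, 23.4, 40.3 and 89.5 CPM in the HVCN1 null hearts and 143, 53.5, 61.7 and 76.6 CPM in the WT hearts. As for Alas2 and Slc4a1, only HVCN1 null heart 4 of its group reached the WT range. Its log2 fold change was -0.93 (standard error 0.55, edgeR adjusted p = 0.667), or -0.52 without WT heart 5 and -1.54 without HVCN1 null heart 4.

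Over the 8 hearts, these genes rose with Hbb-bs, by unequal amounts. On log2 CPM, Pearson's r with Hbb-bs was 0.975 for Bpgm (exact permutation p = 9.92e-05, Spearman's rho 0.952 with exact p = 0.00114) and 0.967 for Alas2 (exact permutation p = 9.92e-05, rho 0.952 with exact p = 0.00114). It was 0.951 for Slc25a37 (exact permutation p = 0.000223, rho 0.929 with exact p = 0.00223) and 0.942 for Slc4a1 (exact permutation p = 0.000397, rho 0.976 with exact p = 0.000397). Adjusted over the 5 relations, these 4 had p of 0.000248 to 0.000496. Fech followed less closely, with r = 0.718 (exact permutation p = 0.0463, also after adjustment, rho 0.667 with exact p = 0.0831). When the hearts farthest from the median of Hbb-bs, 2 and 5, were left out, r was 0.849 to 0.948 for the other 4 genes (exact permutation p 0.00417 to 0.0181) and 0.655 for Fech (exact permutation p = 0.164). The relation of Fech thus did not pass 0.05 over the other 6 hearts, where r was only slightly smaller. All values of a heart come from 1 library, and the members were chosen as genes of one cell type. The tests pooled the hearts of both genotypes, so a difference between genotypes enters r. After subtracting each genotype's mean, r with the sum of the adult globin genes was 0.65 for Fech (0.734 before). It was then 0.922 to 0.994 for the other 4 genes.

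The slopes told the genes apart more than the correlations did. For each unit of log2 Hbb-bs, Alas2 rose by 0.911, Slc4a1 by 0.878 and Bpgm by 0.732 log2 units. Slc25a37 rose by 0.283 and Fech by 0.137. HVCN1 null heart 3 and WT heart 6 had near values of Hbb-bs (1775 and 1653 CPM), but Slc4a1 was 4.03 CPM in the former and 8.04 CPM in the latter, and Alas2 was 77.1 and 116 CPM. That is a comparison of single hearts, with no test.

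**Figure D3:**
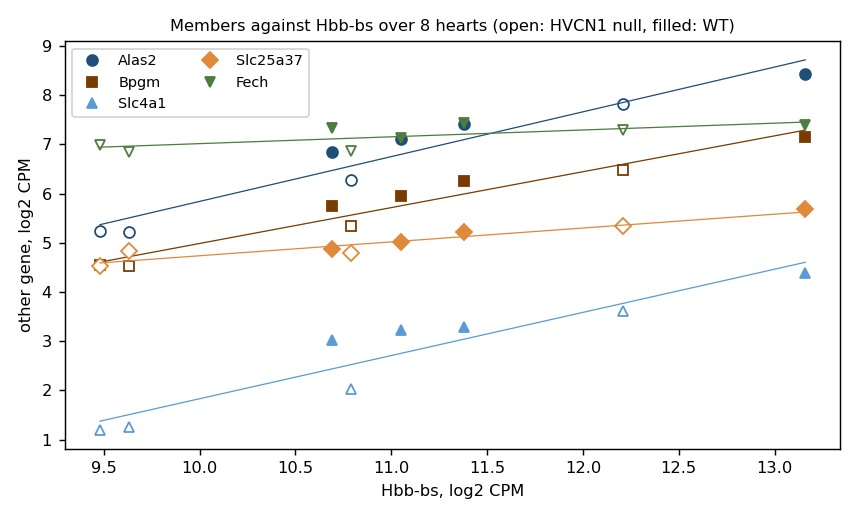
Log2 CPM of Alas2, Bpgm, Slc4a1, Slc25a37 and Fech against log2 CPM of Hbb-bs, with open symbols for HVCN1 null and filled symbols for WT hearts and 1 fitted line per gene. The lines of Alas2, Slc4a1 and Bpgm are steep (slopes 0.911, 0.878 and 0.732), while those of Slc25a37 and Fech are shallow (0.283 and 0.137).

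Per kilobase of exon, the 9 genes covered more than 3 orders of magnitude in the WT hearts. Hbb-bs had 5071 ± 4594 CPM per kb, Hba-a1 1786 ± 1245, Hba-a2 926 ± 674 and Hbb-bt 912 ± 827 (SD, n = 4). Hba-a2 and Hbb-bt were not ordered, since Hba-a2 was higher in 5 of 8 hearts. Alas2 followed with 80.0 ± 43.4, and the lower 4 were Bpgm with 23.4 ± 11.4, Fech with 11.6 ± 1.03, Slc25a37 with 6.22 ± 1.62 and Slc4a1 with 2.45 ± 1.23 CPM per kb. Bpgm was above Fech in 6 of 8 hearts. Every other neighbouring pair kept its order in 8 of 8 hearts. The same scale put myoglobin, the oxygen store of heart muscle, at 7002 CPM per kb in WT hearts, and its level did not follow genotype (9476 ± 1679 CPM in HVCN1 null and 10450 ± 1782 CPM in WT hearts, SD, n = 4, edgeR adjusted p = 0.88). Of the embryonic globins, Hba-x and Hbb-bh1 had 0 counts in all 8 hearts. Hbb-y had 0 counts in the HVCN1 null group and 4 in the WT group.

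The 10 other genes whose levels were most like the globin sum included a globin gene and a heme transporter. Over 8 hearts, Pearson's r of log2 CPM with the log2 globin sum was 0.994 for Mkrn1, 0.991 for Ube2l6, 0.973 for Tent5c and 0.969 for Trim10. Apol11b and Hbq1b had 0.967, Slc48a1 and Isg20 0.964, and Pym1 0.963. Among these, Hbq1b encodes a minor alpha-like globin and Slc48a1 a heme transporter. Their amplitudes were unequal, 11.7-fold over the hearts for Hbq1b and 1.43-fold for Slc48a1. The range and r of Hbq1b rest on few counts, 32 in the HVCN1 null group and 67 in the WT group. Of 14796 genes, 50 (0.338%) had r above 0.9, and edgeR, DESeq2 and limma voom called 0 of these 10 genes, with 0 at an unadjusted edgeR p under 0.05. The same r was 0.998 for Hbb-bs, 0.981 for Bpgm and 0.734 for Fech. These correlations are descriptions, in which the sum includes Hbb-bs.

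Genes of the red cell membrane and of reticulocytes differed in how closely they followed globin RNA. Of 26 listed genes, 17 were tested, 13 were fitted lower and 4 higher in HVCN1 null hearts, and the median log2 fold change was -0.29. By edgeR, DESeq2 and limma voom 0 were called, with 1 at an unadjusted edgeR p under 0.05. Of the 17 tested, 7 had r above 0.9 with the globin sum, and the median r was 0.67. Epb42, a protein of the membrane skeleton, ranged 17.7-fold over the hearts, with 0.530 ± 0.586 CPM in HVCN1 null and 0.887 ± 0.373 CPM in WT hearts (SD, n = 4, log2 fold change -0.75, edgeR adjusted p = 0.828). That range rests on few counts, 70 in the HVCN1 null group and 126 in the WT group. Ank1 (ankyrin) ranged 1.24-fold and Sptb (beta spectrin) 1.47-fold, with r of 0.245 and -0.239, beside 0.942 for Epb42. Both were far more abundant than Epb42, at means of 412 and 196 CPM in WT hearts. Which cells their RNA came from was not tested. Among transcription factors of red cell precursors, Gata1 was scarce, having 31 counts in the HVCN1 null group and 18 in the WT group. Klf1 and Gfi1b had still fewer counts in each group. Tal1 was not scarce, at a mean of 6.69 CPM in HVCN1 null and 6.22 CPM in WT hearts. Nfe2 lay between Gata1 and Tal1 in the mean CPM of both groups.

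Markers of other blood cells rose with globin RNA in part, but did not order the hearts in the same way. Summed platelet markers were 19.7, 20.0, 55.6 and 114 CPM in HVCN1 null hearts 1 to 4 and 76.5, 39.1, 20.3 and 25.8 CPM in WT hearts 5 to 8. HVCN1 null heart 4 was highest for platelets and WT heart 5 for globin. All 11 platelet genes were tested, 10 were fitted higher in HVCN1 null hearts, and the median log2 fold change was 0.51. That direction rested on HVCN1 null heart 4, without which 0 of the 11 were fitted higher and the median was -0.44. Over the hearts, the median r with the globin sum was 0.72 for platelet genes, 0.71 for monocyte genes and 0.69 for B cell genes. It was 0.56 for T cell genes and 0.43 for neutrophil genes. Beside these, it was 0.32 for heart muscle, 0.11 for endothelial and 0.03 for atrial genes, and -0.02 over all genes tested. Of the platelet genes, 0 were called by edgeR, DESeq2 or limma voom, and 0 had an unadjusted edgeR p under 0.05. Summed B cell markers ranged 8.04-fold over the hearts, neutrophil markers 3.56-fold, T cell markers 2.41-fold, monocyte markers 1.95-fold and endothelial markers 1.29-fold, each with groups that overlapped. The part of blood cells other than red cells in the globin values was not tested.

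Of 58 tested markers of other blood cells, endothelium, heart muscle and atrium, edgeR called 1 (1.72%), near the 1.16% of all genes. It was Ccr2, a chemokine receptor of monocytes, with 1.30 ± 0.373 CPM in HVCN1 null and 3.20 ± 0.924 CPM in WT hearts (SD, n = 4, log2 fold change -1.30, standard error 0.27, edgeR adjusted p = 0.0438). DESeq2 also called it (adjusted p = 0.000987), while limma voom (0.0599), unscaled library sizes (0.0720) and a fit without the robust prior (0.0527) did not. With 1 heart left out, its edgeR adjusted p ran from 0.0222 to 0.136, and it was lost without heart 1, 2, 3, 5, 7 or 8. DESeq2 called 1 heart muscle marker as well, Actc1 (cardiac actin, named after its values were seen), which edgeR did not call (adjusted p = 0.112).

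**Figure D4:**
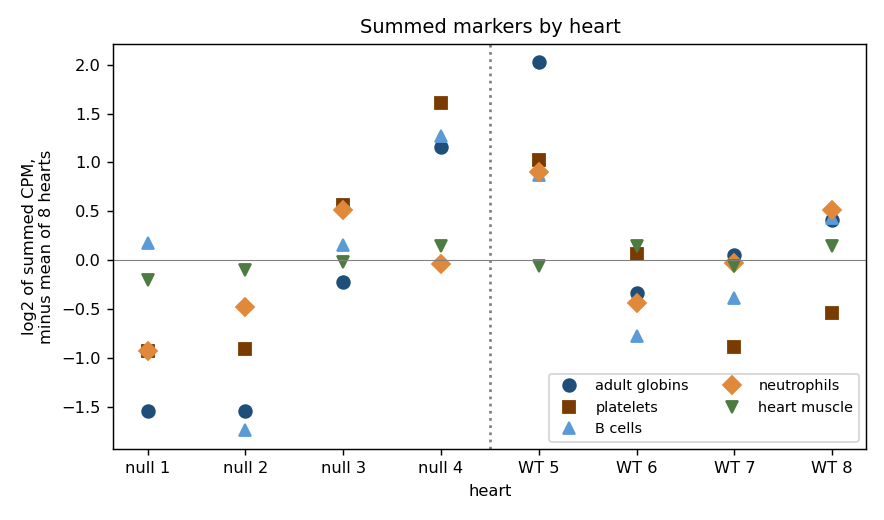
Log2 of the summed CPM of each marker list minus its mean over the 8 hearts, for adult globins, platelets, B cells, neutrophils and heart muscle. Each point is 1 library; globin and platelet sums are high in HVCN1 null heart 4 and WT heart 5 but part in WT hearts 7 and 8, while heart muscle stays near 0.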

How the data were processed

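Poly-A RNA libraries of 4 HVCN1 null and 4 WT hearts were read as paired reads of 50 bases. The authors aligned reads with STAR and deposited raw counts per Ensembl gene from featureCounts; the submitters' processing notes name mm10 and GRCm38, while the methods name a human build. The gene IDs are mouse IDs. The strand setting, the handling of reads that match several genes and the versions are not given in the sources used here. Of 39056 IDs, 38872 (99.5%) matched GENCODE M21. Hearts were grouped by the labels' genotype, and no batch is given.

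Counts were tested with edgeR 4.0.16 (filterByExpr, TMM, robust quasi-likelihood fit, genotype only, Benjamini-Hochberg over 14796 genes, threshold 0.05) in R 4.3.3. CPM are TMM-scaled, with a prior count of 2 for log2 values. Shares, and CPM of single genes, were compared by exact two-sided permutation over all 70 assignments (scipy 1.17.1). Transcripts of GENCODE M21 were compared in stretches of 50 bases. Alternatives were DESeq2 1.42.0, limma 3.58.1 voom, other scalings and filters, and leaving out hearts.

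The members and lists were chosen with earlier results of these data known. Genes named in the text were the 9 members, called genes of the marker lists, genes of the heme, globin and red cell lists given with their role, and the 10 genes most like the globin sum. The Trim genes were chosen after their values were seen. For Alas2 and Slc25a37, genes on the opposite strand overlap. The hearts of a group are taken as separate animals, as the study's methods describe. Ahsp, Hbb-b1 and Hbb-b2 of the lists were not found by symbol in the count table, so they were not analysed here. Values of some genes of the red cell list, 1 of them among those most like the globin sum, are not reported here.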

Additional observations from a re-analysis of the deposited data

Results flagged for a closer look

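WT heart 5 stood apart from WT hearts 6 to 8 in red cell genes. Its gap to the nearest WT heart, over the range of the group, was above Dixon's 95% limit for 4 values in 4 of 26 groups of values examined. Where values are normally distributed, chance flags about 1 in 20. These were Hbb-bs at 9150 CPM, Hbb-bt at 1508 CPM, Slc4a1 at 20.9 CPM and the summed adult globin genes at 14860 CPM. The 4 values are not independent, since they come from 1 library and include the same counts. They were flagged on CPM, and the flag depends on that scale. On log2 CPM, Hbb-bs was 13.16 in WT heart 5 and 10.69, 11.05 and 11.38 in WT hearts 6 to 8, a smaller gap relative to the range. No test of the reason was made.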

How the results depend on the processing

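No paired analysis was possible because the labels give the groups no shared replicate numbers. The fit called 171 genes by edgeR, 466 by DESeq2, and 88 to 165 when 1 heart was left out, with 109 without WT heart 5 and 88 without WT heart 6. Members called stayed at 0, other than 1 (Slc4a1) without both HVCN1 null heart 4 and WT heart 5, which was chosen after seeing the data. The members' log2 fold changes kept their direction and side of the threshold in 148 values, counting each gene under each alternative, and that 1 value crossed it. The difference in the Hbb-bs share ran from 4.83 to 5.19 percentage points with 1 heart left out (exact permutation p = 0.0571, the smallest that 3 and 4 hearts allow) and was 4.996 without both hearts. By Spearman's rho, 3 of the 10 genes most like the globin sum were in its own first 10, and 7 after subtracting each genotype's mean. Globin RNA varied so widely between hearts that 4 hearts a group leave its difference poorly fixed. Counts cannot be assigned beyond doubt within a pair of globin genes.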
